A study of Mus musculus with 12 samples.

Results

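Injured spinal cords of EphA4 knockout mice were compared with injured spinal cords of wild-type mice across all measured genes. The comparison rests on the 6 arrays that the labels give as injured, 3 per genotype, out of 12 arrays in the series, the other 6 being sham-operated cords. All mice were of the strain C57/BL6. The injured mice had a lumbar hemisection of the left side of the cord, the sham-operated mice a laminectomy alone, and at day 4 a 6 mm length of cord was collected. Each array held the RNA of 1 mouse. The sham-operated wild-type mice were 2 males and 1 female of 10 weeks, and the sham-operated EphA4 knockout mice a female of 12 weeks and males of 9 and 10 weeks. The injured wild-type mice were a male of 10 weeks, a female of 14.5 weeks and a male of 10 weeks, and the injured EphA4 knockout mice were 2 males and 1 female of 10 weeks. The knockout is constitutive, so that the gene was missing in every cell type and throughout development. The labels and the methods differ on whether the cord tissue that was taken came from the injured or the uninjured side.

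EphA4 is a receptor tyrosine kinase that binds ephrins on neighbouring cells and repels growing axons. A cut through the cord is followed within days by the entry of blood monocytes and neutrophils, the activation of microglia and astrocytes, the clearing of debris by phagocytes and the division of glia, macrophages and fibroblasts. RNA of a whole tissue piece holds all of these cells, so that fewer cells of a type and less RNA per cell cannot be told apart in these values.

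The arrays were not alike in every respect. Of the injured arrays, the labels place wild-type replicates 2 and 3 and EphA4 knockout replicate 2 in RNA extraction batch 1. Wild-type replicate 1 and EphA4 knockout replicate 1 are in batch 2, and EphA4 knockout replicate 3 is alone in batch 4. Of the sham-operated arrays, wild-type replicate 1 and EphA4 knockout replicate 2 are in batch 1. Wild-type replicates 2 and 3 and EphA4 knockout replicate 3 are in batch 2, and EphA4 knockout replicate 1 is alone in batch 3. Batches 3 and 4 thus hold knockout arrays only, and in these arrays batch and genotype cannot be told apart. Gene levels of any 2 injured arrays correlated across genes, which are not independent replicates, at 0.985 to 0.992. On the log2 scale the list of skeletal muscle averaged 5.77 in wild-type replicate 1, whereas the other injured arrays ran from 4.07 to 4.43. The list of fibroblasts, pericytes and meninges was high in EphA4 knockout replicate 1 (7.51, the others 6.08 to 6.63). In EphA4 knockout replicate 2 the interquartile range of the probeset values was 3.28, against 3.47 to 3.61 in the others, and olfactory receptor genes, which lie near the lowest signals of a cord array, stood at 3.67, against 3.21 to 3.35. On the first principal component of the injured arrays, which held 32.8% of the variance, this array lay at 29.0 and EphA4 knockout replicate 3 at −17.7, with the other 4 between −7.0 and 3.5. Genes of the Y chromosome followed the sex given in the labels in each injured array. Markers of neurons and of mature oligodendrocytes had mean log2 levels of 9.62 to 9.79 and 9.55 to 9.90, as fits a piece of spinal cord.

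Of 15830 genes, 126 were called, which is 0.796% of those tested, where a p threshold of 0.01 alone passes 1% of genes that do not differ. A gene was called where limma gave an unadjusted p below 0.01 and the change was 1.2-fold or more, which are the thresholds of the study. Of these, 105 were lower in EphA4 knockout cords, 0.663% of all genes, and 21 were higher, 0.133%. No gene passed an adjusted p of 0.05 (smallest 0.111 from limma, for Epha4 and, with 1 probeset each, Rmnd1 and Nrp), and 639 genes (4.04%) had an unadjusted p under 0.05. In all 126 the EphA4 knockout arrays lay on one side of the wild-type arrays, as they did in 8.63% of all genes (5.51% with the knockout lower and 3.11% with it higher). The change reached 2-fold in 8 of the 126, 6 lower and 2 higher, and 10 of them were measured by 1 probeset. The call ended at Hfe, with an unadjusted p of 0.00990 from limma, and among the genes just outside it was Pilra, at 0.0101.

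How many genes were called depended on the arrays and on their scaling. Without wild-type replicate 3, 72 genes were called, 15 higher and 57 lower. The higher genes numbered 41, 59 and 67 without EphA4 knockout replicates 1, 2 and 3, and 13 without wild-type replicate 1. Of the 126, 25 kept an unadjusted p under 0.01 from limma without each of the 6 arrays in turn, among them Arg1, Ccl2, Ccnb2, Alox5ap, Tgm1, Junb and Rmnd1. With extraction batch as a fixed term, which leaves EphA4 knockout replicate 3 out because it is alone in its batch, 52 of the 126 were called and 202 in all, 97 higher and 105 lower. With batch as a random block all 126 kept a p under 0.01. By the methods' t-test 45 of the 126 were called, and Arg1, Ccl2, Clec4n, Alox5ap, Tgm1 and Ccnb2 were not among them. The excess of lower genes was smaller under other scalings, with 35 higher and 75 lower after centring each array on its median, 40 and 107 after another quantile normalization, and 42 and 60 after giving the arrays the same interquartile range. Called genes were not spread evenly over the range of probe signal, with 8 higher and 5 lower among the dimmest 3958 genes and 0 higher and 31 lower among the brightest 3958. Over all genes of these sets the median difference was 0.06 and −0.03.

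**Figure D1:**
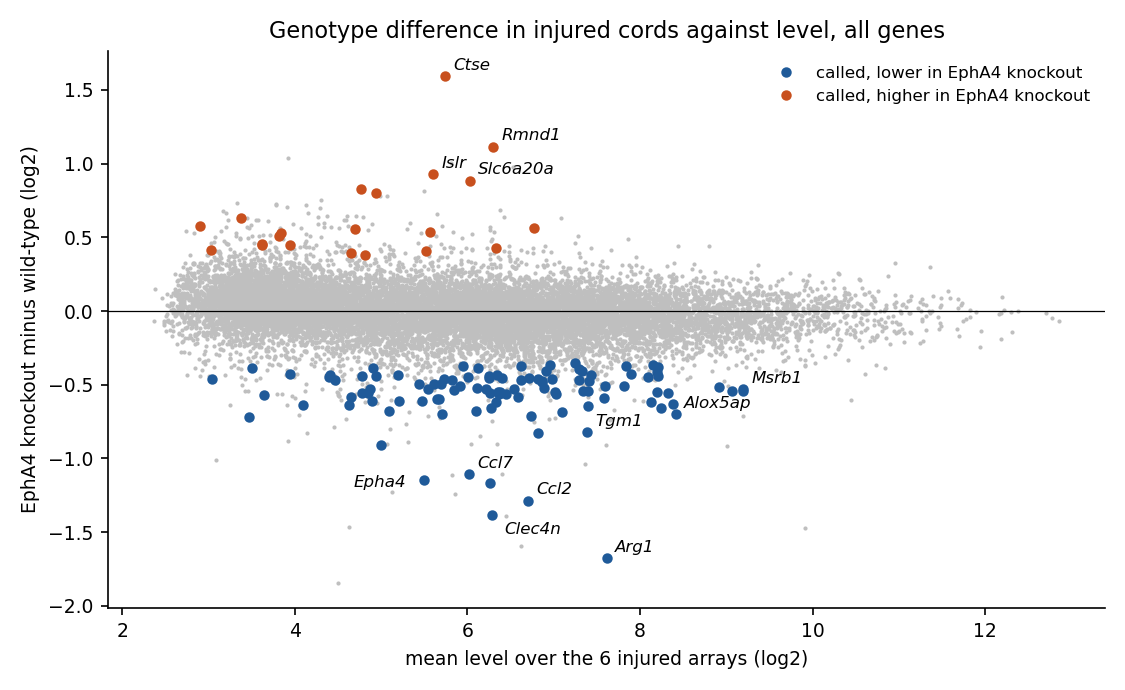
Difference between EphA4 knockout and wild-type injured cords on the log2 scale (vertical axis) against the mean log2 level over the 6 injured arrays (horizontal axis), 1 point per gene, with called genes in colour. The 105 genes called lower lie mostly at middle and high signal, and of the 21 called higher none lies among the brightest 3958 genes.

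Epha4, the targeted gene, is measured by 18 probesets. Its log2 levels were 5.87, 6.24 and 6.11 in wild-type replicates 1 to 3 and 4.82, 4.86 and 5.10 in EphA4 knockout replicates 1 to 3, the order in which array values are given from here on. Each EphA4 knockout array lay below each wild-type array, and so did 14 of the 18 probesets taken singly. The difference was −1.15 on the log2 scale (SE 0.14, unadjusted p = 1.73e-05 from limma), a 2.22-fold lower level. Differences of single probesets ran from −3.21 to 0.29, so that this fold change is an average over unlike probesets. Of 19 other measured Eph receptors and ephrins none was called, and their differences ran from −0.15 for Efna1 to 0.25 for Efnb2, with a median of 0.07, so that the related genes gave no called difference at day 4.

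Arg1, which encodes arginase 1, the enzyme that splits arginine into ornithine and urea, had the largest difference among the called genes. Its log2 levels were 8.38, 7.96 and 9.03 in wild-type and 7.34, 6.59 and 6.41 in EphA4 knockout cords. The groups did not overlap, and all 9 probesets were lower on average in the knockout. The mean was 8.46 ± 0.54 (SD, n = 3) in wild-type and 6.78 ± 0.50 (SD, n = 3) in EphA4 knockout cords, a difference of −1.68 (SE 0.30, unadjusted p = 0.000350 from limma). Within batch 1 the difference was −1.91 and within batch 2 −1.04. Among 11 measured genes of arginine, nitric oxide and polyamine metabolism Arg1 was the 1 called. Nos2, the inducible nitric oxide synthase, differed by 0.03, and Srm, a synthase of polyamines, by −0.24. Among 13 genes of alternatively activated macrophages it was again the 1 called, with a list median of −0.04. Chil3, a secreted chitinase-like protein of this state, stood at −1.23 without passing the thresholds, and Mrc1, the mannose receptor, at −0.04.

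A pair of chemokines, Ccl2 and Ccl7, were called lower in the knockout. Ccl2, the main ligand of the monocyte receptor CCR2, had log2 levels of 7.80, 6.52 and 7.73 in wild-type and 5.97, 6.04 and 6.17 in EphA4 knockout cords. The wild-type arrays spread widely, with replicate 2 the lowest, while the knockout arrays lay close together below it. The difference was −1.29 (SE 0.30, unadjusted p = 0.00199 from limma). Ccl7, which binds the same receptor, stood at 6.85, 5.78 and 7.09 against 5.65, 5.13 and 5.62, a difference of −1.11 (SE 0.31), and again wild-type replicate 2 was the lowest of its group. Without EphA4 knockout replicates 2 or 3 or wild-type replicates 1 or 3, Ccl7 lost its call, with unadjusted p of 0.0305, 0.0145, 0.0224 and 0.0205 from limma, whereas Ccl2 kept it without each array. Of 26 measured chemokines these were the 2 called, 17 lay below 0 and the median was −0.14, against 48.9% of all genes below 0 and a median of 0.00. Ccl12, a mouse ligand of CCR2, lay at −0.90 and Pf4, a chemokine of platelets and macrophages, at −1.39 without passing the thresholds, and Ccl5, a chemokine of T cells, at 0.43.

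**Figure D2:**
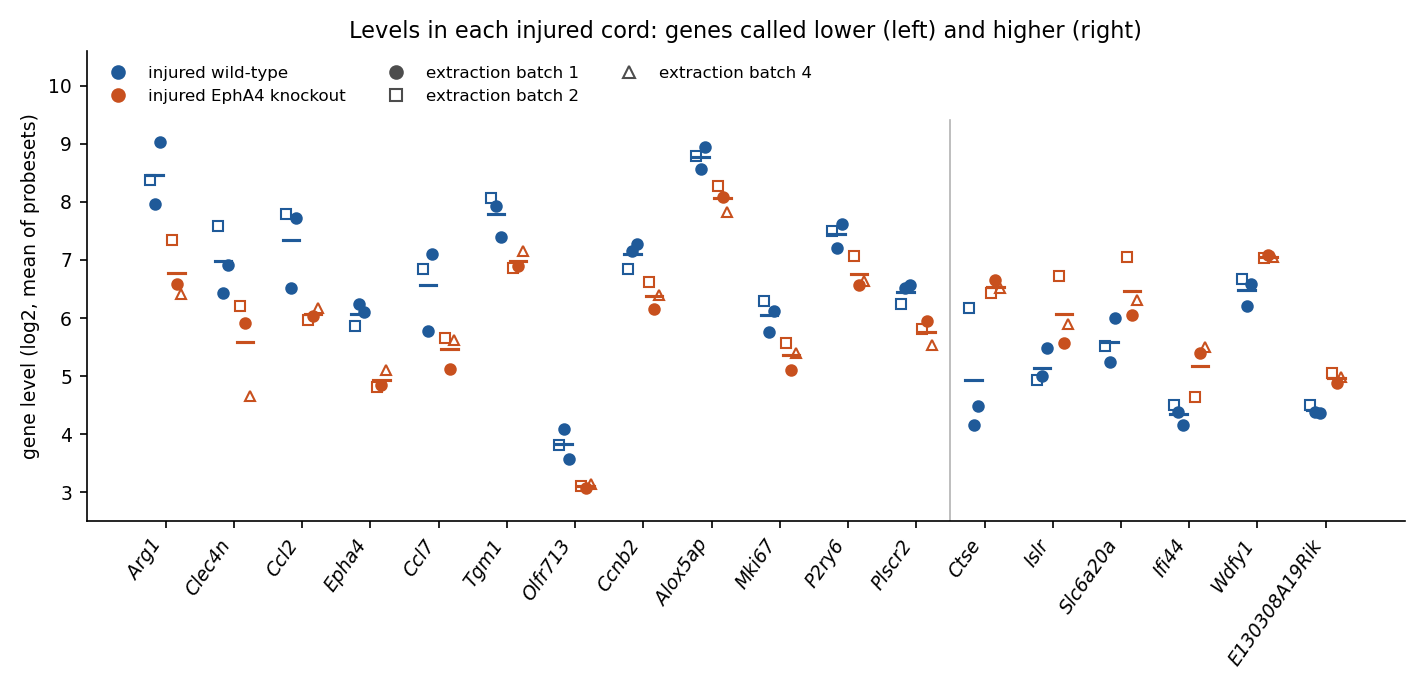
Log2 level of each injured cord (vertical axis) for the 12 genes with the largest decrease and the 6 with the largest increase among called genes of 2 or more probesets. Colour gives the genotype, the symbol the RNA extraction batch and the bar the group mean. The genotypes do not overlap in any of the 18 genes, but in several the gap is narrow. In Slc6a20a wild-type replicate 3 stands at 5.99 and EphA4 knockout replicate 2 at 6.06, and in Islr the same arrays stand at 5.48 and 5.57. Wild-type replicate 2 in Ccl7 and wild-type replicate 1 in Ctse also come near the knockout arrays.

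After the calls were known, called genes were sorted by textbook role, and 13 immune receptors and their signalling proteins were all lower, with a median of −0.53. With no list or denominator behind it, this count is a description, and 105 of all 126 called genes were lower. Clec4n, the mouse dectin-2, a lectin of macrophages that binds fungal mannans, had log2 levels of 7.59, 6.43 and 6.91 in wild-type and 6.21, 5.91 and 4.65 in EphA4 knockout cords. The lowest value by far was that of EphA4 knockout replicate 3. Its difference was −1.39 (SE 0.40), with −0.92 without that array. The call was lost without EphA4 knockout replicates 2 or 3 or wild-type replicates 1 or 3 (unadjusted p = 0.0139, 0.0192, 0.0281 and 0.0141 from limma). Cysltr1, a receptor of leukotrienes, was tighter, at 5.40, 5.11 and 5.11 against 4.77, 4.52 and 4.49, a difference of −0.61 (SE 0.13) that kept its call without each array.

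Toll-like receptors sense microbial and damage products and signal through MyD88. In a list of 20 measured genes of Toll-like receptors and the inflammasome, 3 were called, all lower (15%, against 0.796% of all genes). Below 0 lay 18 of the 20, against 48.9% of all genes, and the median was −0.27. The mean log2 level of the list was 5.64, 5.54 and 5.71 in wild-type and 5.37, 5.50 and 5.27 in EphA4 knockout cords. The groups did not overlap, but the replicates 2 lay close together. Other lists, such as glycolysis and hypoxia, were also lower without overlap. Separation of 3 arrays from 3 gives a two-sided p of 0.1 at best in an exact permutation test. That limit holds for each list mean below. The 3 called genes were Tlr13, Ly96 and Tlr6, the last of which the study had also chosen on these same arrays. Tlr13, which recognises bacterial ribosomal RNA in mice, lay at −0.56. Ly96, the partner of Tlr4 in binding lipopolysaccharide, lay at −0.47, and Tlr6, a partner of Tlr2, at −0.44. Tlr6 lost its call without wild-type replicate 2 (unadjusted p = 0.0118 from limma). Tlr13 lost it without EphA4 knockout replicates 2 or 3 or wild-type replicates 1 or 3 (unadjusted p of 0.0130 to 0.0353 from limma), and Ly96 without any array but wild-type replicate 1 (0.0108 to 0.0415). Pycard, the adaptor of the inflammasome, lay at −0.58 and Myd88 at −0.34 without passing.

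Alox5ap, the protein that presents arachidonic acid to 5-lipoxygenase, had log2 levels of 8.79, 8.56 and 8.94 in wild-type and 8.27, 8.09 and 7.83 in EphA4 knockout cords. The groups did not overlap, and the difference of −0.70 (SE 0.15, unadjusted p = 0.00121 from limma) kept its call without each array but not with the same interquartile range in each array (unadjusted p = 0.016 from limma). Alox5, the lipoxygenase itself, lay at −0.29 and did not pass. Tgm1, a transglutaminase that crosslinks proteins, was at 8.07, 7.92 and 7.39 against 6.87, 6.90 and 7.15, a difference of −0.82 (SE 0.18), with the smallest gap between wild-type replicate 3 and EphA4 knockout replicate 3.

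The study named 17 genes, as genes of inflammation and immunity or of a macrophage population that expresses Arg1, which it had chosen on these same arrays, so that their direction is not independent evidence. All 17 lay below 0, 8 were called and the median was −0.40. Rab32, a small GTPase of lysosome-related organelles, was at 6.87, 6.89 and 6.87 in wild-type and 6.28, 6.20 and 6.39 in EphA4 knockout cords (difference −0.58, SE 0.11). Msrb1, a selenoprotein that repairs oxidised methionine, was at 9.57, 9.31 and 9.52 against 9.00, 8.83 and 8.97 (difference −0.53, SE 0.12), and lost its call when the arrays were given the same interquartile range (unadjusted p = 0.0365 from limma). Sla, an adaptor that dampens receptor signalling in leukocytes, differed by −0.56 and lost its call without wild-type replicate 3 (unadjusted p = 0.011 from limma). Cflar, an inhibitor of caspase-8, had the smallest difference of the 17, at −0.25, and did not pass.

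Markers of the phagocytes themselves leaned the same way with no call. Of 20 measured genes of macrophages and phagocytes all 20 lay below 0, with a median of −0.30, yet 0 were called (7 at an unadjusted p under 0.05 from limma). Their mean log2 level was 8.96, 8.56 and 9.06 in wild-type and 8.74, 8.61 and 8.29 in EphA4 knockout cords, so that the groups overlapped through wild-type replicate 2. The level in sham-operated cords of both genotypes was 5.91 to 6.16. The median of the list was −0.26 within batch 1, −0.21 within batch 2 and −0.65 for EphA4 knockout replicate 3 against the wild-type mean. Msr1, a scavenger receptor, lay at −0.61, Itgam, the integrin CD11b, at −0.38, Cd68, a lysosomal protein of phagocytes, at −0.24 and Gpnmb at −0.11. How far the lower levels of Arg1, Ccl2 and the receptors follow the level of these markers was not tested. Genes of homeostatic microglia had a median of −0.14, which was −0.26 within batch 1 and 0.20 within batch 2, and 0 of 11 were called (0 at an unadjusted p under 0.05 from limma).

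Hmox1, which breaks down haem and is high in phagocytes that have taken up red blood cells, did not pass in spite of one of the largest differences. Its log2 levels were 11.15, 10.25 and 10.56 in wild-type and 10.37, 9.17 and 8.01 in EphA4 knockout cords. The highest knockout array reached into the wild-type range and the lowest stood far below the others, and the difference was −1.47 with an SE of 0.50, or −0.88 without EphA4 knockout replicate 3. Of 13 measured genes of the Nrf2 and haem response 10 lay below 0, with a median of −0.15, and 0 were called (4 at an unadjusted p under 0.05 from limma).

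Genes of mitosis lay mostly below 0, and in their mean level the genotypes were separated by a narrow margin. Of 23 measured genes of mitosis 22 lay below 0, the median was −0.28 and 3 were called, all lower. The mean log2 level of the list was 5.93, 5.90 and 6.05 in wild-type and 5.70, 5.43 and 5.84 in EphA4 knockout cords, and 4.07 to 4.25 in sham-operated cords. EphA4 knockout replicate 2 stood lowest, and without it the median was −0.18 and 1 gene was called, as was 1 without wild-type replicate 3 and 0 without dim probesets. Within batch 1 the median was −0.59, within batch 2 −0.24 and for EphA4 knockout replicate 3 −0.13.

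Ccnb2, cyclin B2, a partner of the mitotic kinase Cdk1, had log2 levels of 6.85, 7.16 and 7.27 in wild-type and 6.62, 6.16 and 6.39 in EphA4 knockout cords. The difference was −0.71 (SE 0.16, unadjusted p = 0.00159 from limma), −1.06 within batch 1 and −0.24 within batch 2. It kept its call without each array, but not with batch as a fixed term or without dim probesets (unadjusted p = 0.0109 and 0.0138 from limma). Mki67, which coats mitotic chromosomes and is the usual marker of cycling cells, was at 6.30, 5.76 and 6.12 against 5.58, 5.11 and 5.40, a difference of −0.70 (SE 0.17). Ckap2, a protein of the spindle, was at 6.49, 6.66 and 6.79 against 5.98, 5.99 and 6.33, a difference of −0.55 (SE 0.14). EphA4 knockout replicate 2 was the lowest array in Ccnb2 and Mki67. Mki67 lost its call without EphA4 knockout replicate 2 or wild-type replicates 1 or 3 (unadjusted p = 0.0113, 0.0126 and 0.0107 from limma). Ckap2 lost it without EphA4 knockout replicates 1 or 2 or wild-type replicates 2 or 3 (unadjusted p = 0.0154, 0.0126, 0.0125 and 0.0189 from limma). Tacc3, a spindle protein outside the list, was lower by a log2 difference of −0.62 (SE 0.13) and kept its call without each array. It was at 6.403, 6.72 and 6.78 against 6.10, 5.94 and 6.01.

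The promoters of the 3 called mitosis genes are shown because they carry a pair of elements that mitotic genes share. The cell cycle genes homology region (CHR, TTTGAA) binds the complex that silences these genes in resting cells, and the CCAAT box (CCAAT) binds the activator NF-Y. Sequences are those of RefSeq on GRCm38.p6, 250 bases before to 50 after the start, on the strand of the gene, with matches of either motif on either strand in capitals. The windows are chr9:70421505-70421804, chr7:135716330-135716629 and chr8:22185770-22186069, all on the minus strand.
Ccnb2: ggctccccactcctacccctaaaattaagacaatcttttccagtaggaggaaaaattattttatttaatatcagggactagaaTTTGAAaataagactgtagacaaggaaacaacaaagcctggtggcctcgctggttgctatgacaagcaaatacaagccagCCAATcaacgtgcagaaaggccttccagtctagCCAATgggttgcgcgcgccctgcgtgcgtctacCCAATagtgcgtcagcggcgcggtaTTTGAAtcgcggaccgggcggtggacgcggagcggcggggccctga
Mki67: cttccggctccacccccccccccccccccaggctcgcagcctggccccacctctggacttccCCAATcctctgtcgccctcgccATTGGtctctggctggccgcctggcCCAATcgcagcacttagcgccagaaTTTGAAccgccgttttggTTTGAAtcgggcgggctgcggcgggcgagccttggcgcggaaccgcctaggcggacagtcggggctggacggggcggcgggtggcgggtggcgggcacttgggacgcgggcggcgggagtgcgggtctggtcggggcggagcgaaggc
Ckap2: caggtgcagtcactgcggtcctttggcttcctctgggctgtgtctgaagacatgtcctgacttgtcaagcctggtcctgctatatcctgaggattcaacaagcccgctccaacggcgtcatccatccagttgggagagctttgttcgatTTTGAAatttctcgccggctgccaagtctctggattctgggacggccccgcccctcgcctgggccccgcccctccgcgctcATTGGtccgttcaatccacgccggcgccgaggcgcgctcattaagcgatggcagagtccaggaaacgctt
Ccnb2 held 2 matches of TTTGAA and 3 of CCAAT, Mki67 2 and 3, and Ckap2 1 and 1, and the motifs do not overlap in their letters. Of the 23 mitosis genes 19 had a promoter in the table, and 15 of these (78.9%) held TTTGAA and 16 (84.2%) CCAAT. Among 12627 measured genes with a promoter the shares were 17.2% and 42.4%, and over all promoters of this length 17.9% and 37.4%. Among 80 genes called lower that had a promoter the shares were 17.5% and 37.5%, close to those of all measured genes. A match is a description of letters and no test of what acts there.

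DNA replication genes leaned lower without a call. Of 22 measured genes 19 lay below 0 and 0 were called (3 at an unadjusted p under 0.05 from limma), with a median of −0.22, which was −0.10 without EphA4 knockout replicate 2. Their mean log2 level was 5.50, 5.44 and 5.56 in wild-type and 5.36, 5.19 and 5.39 in EphA4 knockout cords. The groups were separated by a narrow margin. Mcm6, a subunit of the replicative helicase, lay at −0.47 (−0.66 in sham-operated cords) and Mcm5 at −0.36. Of 19 of these genes with a promoter, 3 held TTTGAA and 12 CCAAT.

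Stress and damage response genes were among the lower calls. Junb, a subunit of the transcription factor AP-1, was at 4.97, 4.90 and 4.98 in wild-type and 4.31, 4.24 and 4.39 in EphA4 knockout cords. The values lay close together within each genotype, and the difference of −0.64 (SE 0.11, unadjusted p = 0.000214 from limma) kept its call without each array. It was the 1 called gene of 9 immediate early genes, whose median was −0.08. All 3 Gadd45 genes, which bind cell cycle and MAP kinase proteins after DNA damage and stress, were lower. Gadd45b was at 6.49, 6.70 and 6.78 against 6.08, 6.22 and 5.996 (difference −0.56, SE 0.13). Gadd45g differed by −0.55 (SE 0.16) and Gadd45a by −0.37 (SE 0.11). They made up the 3 calls (25%) in a list of 12 measured genes drawn up under the name p53 response, against 0.796% of all genes. The list median was −0.17, and whether p53 acts on the Gadd45 genes here was not tested. Gadd45b lost its call without wild-type replicate 3 (unadjusted p = 0.0103 from limma), Gadd45g without each of the other 5 arrays (0.0130 to 0.0328) and Gadd45a without each of the 6 (0.0102 to 0.0440). Bcl3, a nuclear partner of NF-κB, was lower by a log2 difference of −0.50 (SE 0.11) and kept its call without each array.

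Called genes of RNA processing and of mitochondria were again sorted by role after the calls were known. These counts have no list or denominator behind them and are descriptions. Of all 126 called genes 105 were lower. Of 6 called genes of RNA processing and ribosome assembly all were lower, with a median of −0.52. Nop58, a core protein of the particles that methylate ribosomal RNA, was at 7.67, 7.56 and 7.60 in wild-type and 7.02, 7.02 and 7.16 in EphA4 knockout cords (difference −0.54, SE 0.11). Ptbp1, a splicing repressor, differed by −0.52 and lost its call without wild-type replicate 3 (unadjusted p = 0.0108 from limma). Of 5 called genes of mitochondrial proteins 4 were lower and 1, Rmnd1, was higher. Mrps6, a protein of the mitochondrial ribosome, was at 9.51, 9.46 and 9.44 against 9.05, 9.03 and 8.70 (difference −0.54, SE 0.13). The mean level of proteasome subunits was lower without overlap, at 8.51, 8.59 and 8.64 against 8.38, 8.49 and 8.50, but 0 of 34 were called (3 at an unadjusted p under 0.05 from limma), and their median of −0.13 came to −0.00034 when the arrays were given the same interquartile range. Oxidative phosphorylation genes had a median of −0.07, which turned to 0.07 in that setting, and 0 of 56 were called (1 at an unadjusted p under 0.05 from limma).

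**Figure D3:**
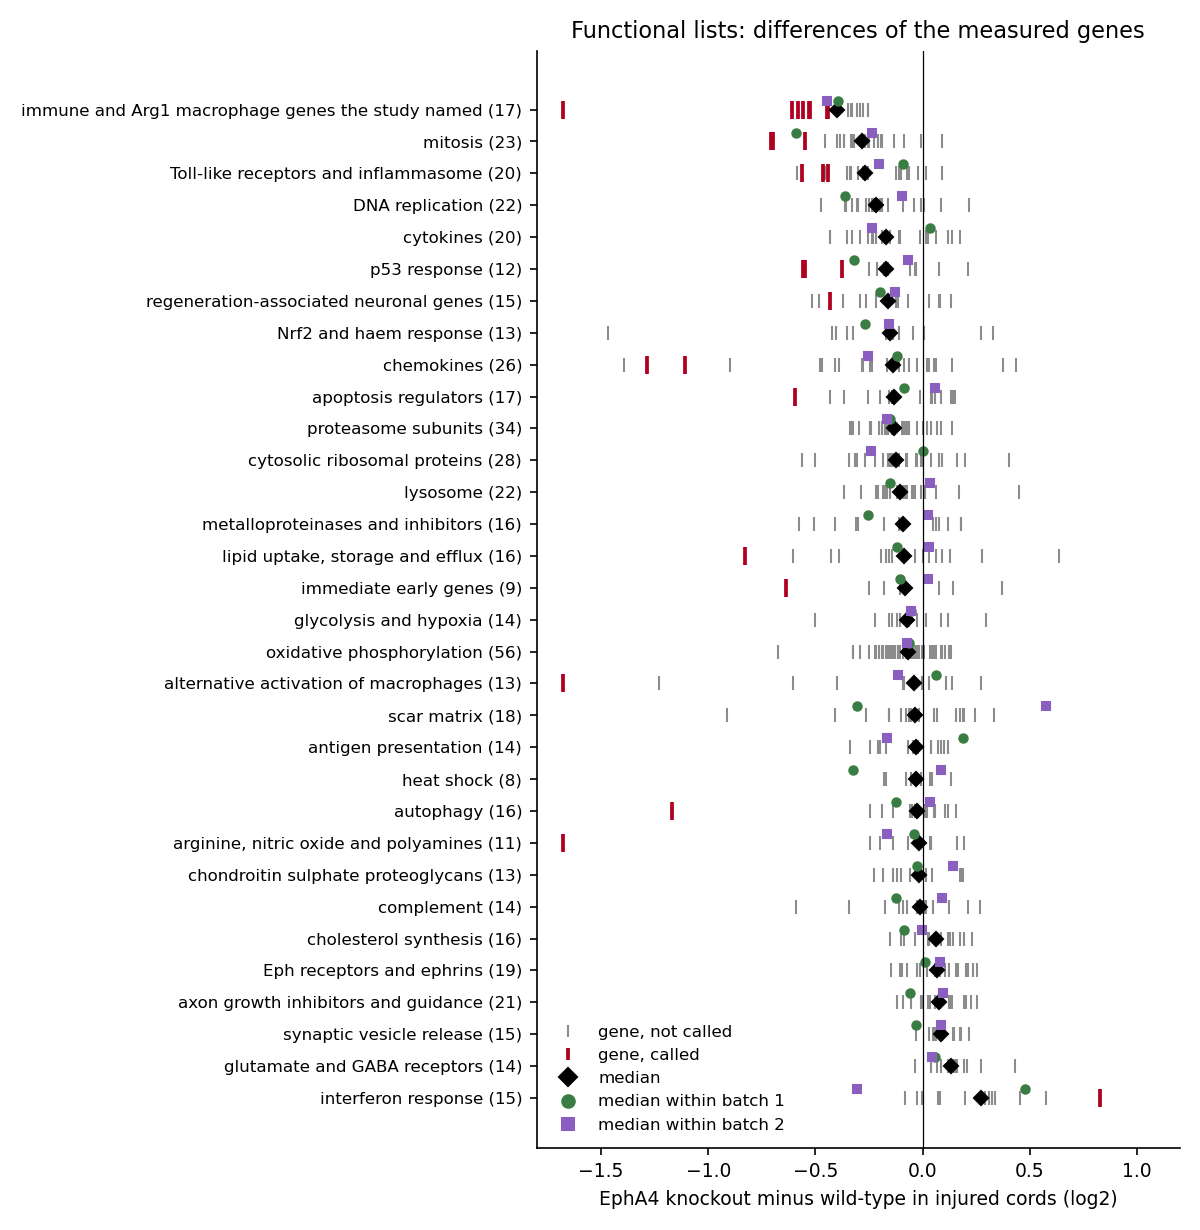
Difference between EphA4 knockout and wild-type injured cords on the log2 scale (horizontal axis) for 32 functional lists, ordered by their median, with the number of measured genes in parentheses. Ticks are genes, red where called, diamonds the median over the 6 arrays, and circles and squares the median within extraction batches 1 and 2. The batch medians lie on opposite sides of 0 in many lists. Among them are the interferon response (0.48 and −0.31), the scar matrix (−0.31 and 0.58) and antigen presentation (0.19 and −0.17).

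Astrocyte genes showed no call. Of 11 measured genes of reactive astrocytes 10 lay below 0 and 0 were called (4 at an unadjusted p under 0.05 from limma). The list mean was 8.64, 8.19 and 8.38 in wild-type and 8.17, 7.87 and 8.21 in EphA4 knockout cords, which overlapped. The median of −0.24 was −0.05 without EphA4 knockout replicate 2 and −0.50 without replicate 3. Steap4, a metalloreductase, lay at −0.89 (−0.59 without wild-type replicate 1), Lcn2, lipocalin 2, at −0.71 and Timp1, an inhibitor of metalloproteinases, at −0.51, whereas Gfap and Vim, the filament proteins that define reactive astrocytes, lay at 0.06 and −0.10. Mature astrocytes had a median of 0.06, with Slc1a3, a glutamate transporter, at 0.39. Of 13 chondroitin sulphate proteoglycan genes, the inhibitors of axon growth in the scar, 0 were called and the median was −0.02 (0 at an unadjusted p under 0.05 from limma).

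Neuronal and oligodendrocyte genes lay close to 0, mostly on the higher side. The median was 0.07 over 14 neuronal genes, 0.09 over 15 of synaptic vesicle release, 0.13 over 14 glutamate and GABA receptors and 0.09 over 13 of mature oligodendrocytes, with 0 called in each list and 1, 0, 1 and 0 genes at an unadjusted p under 0.05 from limma. Gabrb2, a subunit of the GABA receptor, came nearest, at 5.82, 5.85 and 5.64 in wild-type and 6.06, 6.12 and 6.43 in EphA4 knockout cords, a difference of 0.43 (SE 0.13, unadjusted p = 0.0107 from limma). It passed the thresholds after centring on the median, another quantile normalization or equal interquartile ranges. Among 15 regeneration-associated neuronal genes Npy, neuropeptide Y, was called, lower by a log2 difference of −0.43 (SE 0.13), and it lost the call without each of the 6 arrays in turn (unadjusted p of 0.0116 to 0.0523 from limma) and after centring on the median (0.0141). Gap43, the growth cone protein, lay at −0.11, Atf3 at −0.27 and Sox11 at 0.13.

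Markers of skeletal muscle, of fibroblasts, pericytes and meninges, and of neutrophils and lymphocytes set single arrays apart more than genotypes. Skeletal muscle genes had a median of −0.45 that was 0.33 within batch 1, −1.56 within batch 2 and 0.02 without wild-type replicate 1. Acta1, the actin of muscle, stood at 8.77 in that array and between 4.88 and 5.66 in the other 5. The list of fibroblasts, pericytes and meninges had its median at 0.13, which was −0.28 without EphA4 knockout replicate 1, and scar matrix genes one of −0.04, which was −0.36 without it. Neutrophil genes had a median of 0.66 within batch 1 and −0.55 within batch 2. T, B and natural killer cell markers had list means between 3.54 and 4.14 in every injured array, with EphA4 knockout replicate 2 the highest in each list, and in sham-operated cords between 3.63 and 4.01. These means lie near those of olfactory receptor genes, 3.21 to 3.67 in the injured arrays, and thus near the lowest signals. In these lists 0 genes were called (0 at an unadjusted p under 0.05 from limma for T, B and natural killer cells, neutrophils and fibroblasts, 1 for muscle).

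**Figure D4:**
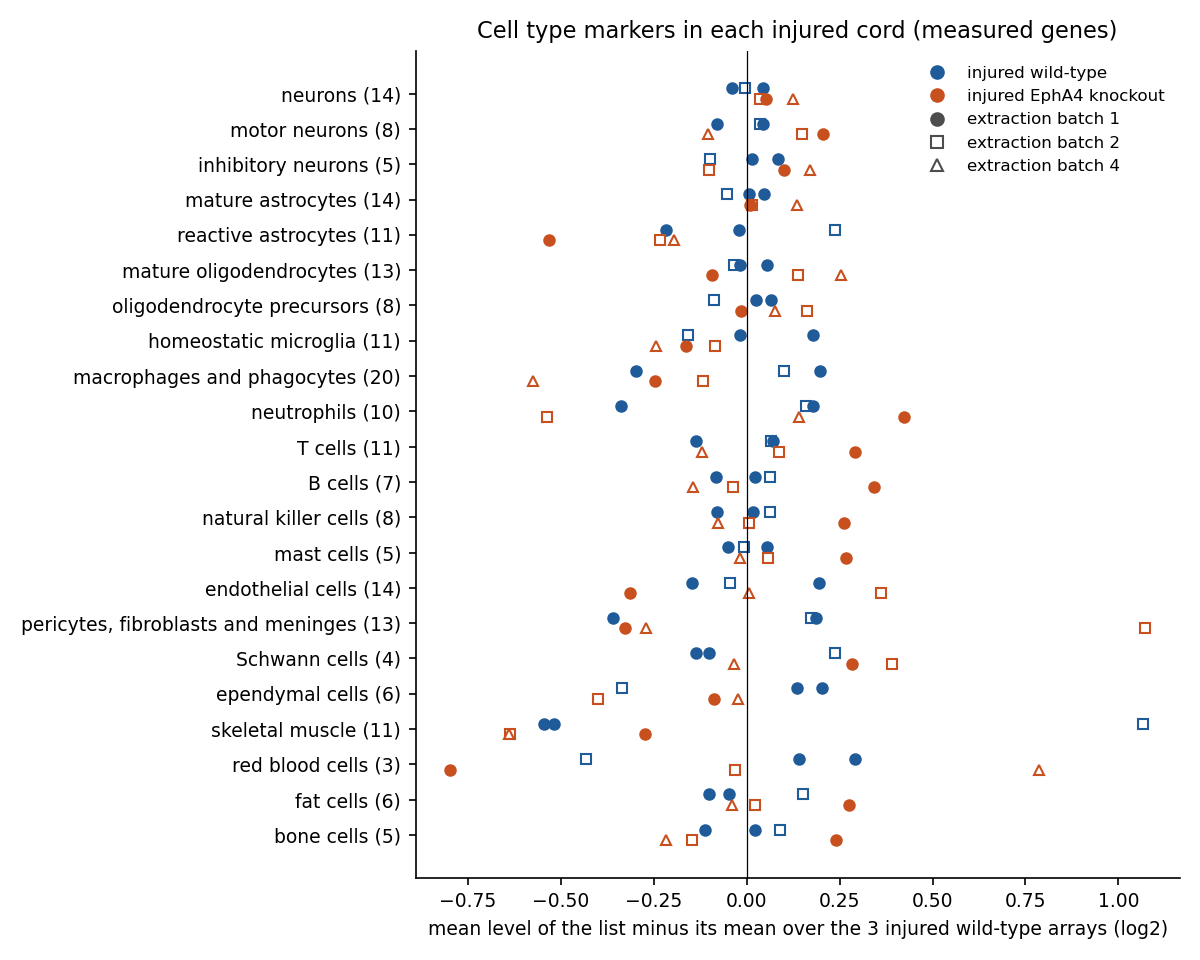
Mean log2 level of each cell type list in each injured cord minus the list's mean over the 3 injured wild-type arrays (horizontal axis), with the number of measured genes in parentheses. Colour gives the genotype and the symbol the extraction batch. Skeletal muscle is high in wild-type replicate 1, fibroblasts and meninges in EphA4 knockout replicate 1, and for macrophages and phagocytes the 3 knockout arrays lie below 2 of the 3 wild-type arrays.

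Ctse, cathepsin E, an aspartic protease of immune and epithelial cells, had the largest increase. Its log2 levels were 6.18, 4.15 and 4.49 in wild-type and 6.42, 6.66 and 6.52 in EphA4 knockout cords. Wild-type replicate 1 stood near the knockout arrays and the other 2 far below, so that the difference was 2.34 within batch 1 and 0.24 within batch 2, and 1.59 (SE 0.43) overall. Without wild-type replicate 1 it was 2.21, with an adjusted p of 0.00696 from limma. It lost its call without EphA4 knockout replicates 2 or 3 or wild-type replicates 2 or 3 (unadjusted p = 0.0229, 0.0189, 0.0178 and 0.0178 from limma). Wild-type replicate 1 was also the array with skeletal muscle genes, and the part of that tissue in its Ctse level was not tested.

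Rmnd1, a protein of mitochondrial translation measured by 1 probeset, was the most separated of the higher genes, at 5.76, 5.59 and 5.86 in wild-type and 6.99, 6.78 and 6.79 in EphA4 knockout cords (difference 1.12, SE 0.12, unadjusted p = 8.26e-06 from limma). Wdfy1, a protein of endosomes, was at 6.66, 6.21 and 6.59 against 7.03, 7.09 and 7.05 (difference 0.56, SE 0.14), and 8 of its 13 probesets were higher without overlap, while 4 were lower on average, 1 of them without overlap, with probeset differences from −0.99 to 1.82. Its call was lost without wild-type replicate 2 (unadjusted p = 0.0106 from limma). Wdfy1 lies on chromosome 1 in GRCm38.p6, with 9 measured genes between it and Epha4. Of the 126 called genes 10 (7.94%) lay on that chromosome, as did 5.72% of the measured genes, and the call next in distance from Epha4 was Igfbp2, an insulin-like growth factor binding protein, at −0.66 with 51 measured genes between. Igfbp2 lost its call without any array but EphA4 knockout replicate 1 (unadjusted p of 0.0112 to 0.0281 from limma), and its difference came to −0.44 without EphA4 knockout replicate 2.

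Islr, an extracellular protein of mesenchymal cells measured by 2 probesets, was at 4.93, 4.998 and 5.48 in wild-type and 6.72, 5.57 and 5.90 in EphA4 knockout cords. Slc6a20a, a transporter of proline and similar imino acids, was at 5.52, 5.24 and 5.99 against 7.05, 6.06 and 6.30. In both the highest array was EphA4 knockout replicate 1, in which the genes of fibroblasts and meninges were also highest. Their differences were 0.93 (SE 0.27) and 0.89 (SE 0.27), and both came to 0.60 without that array and lost their calls (unadjusted p = 0.0147 and 0.0237 from limma). Islr also lost its call without EphA4 knockout replicate 3 or wild-type replicates 1 or 2 (unadjusted p = 0.0168, 0.0292 and 0.0273 from limma), as did Slc6a20a (unadjusted p = 0.0175, 0.0258 and 0.0369 from limma). The part of fibroblasts and meninges in them was not tested.

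Ifi44, an interferon-induced gene, was at 4.51, 4.38 and 4.17 in wild-type and 4.64, 5.40 and 5.50 in EphA4 knockout cords (difference 0.83, SE 0.22). Its call was lost without EphA4 knockout replicates 2 or 3 or wild-type replicates 2 or 3 (unadjusted p = 0.0209, 0.0203, 0.0114 and 0.0168 from limma). It was the 1 called of 15 interferon response genes, of which 12 lay above 0 with a median of 0.27. Their mean level was 5.50, 5.30 and 5.40 in wild-type and 5.07, 5.84 and 6.03 in EphA4 knockout cords. Knockout replicate 1 lay below all wild-type arrays and the other two above them, so that the median was 0.48 within batch 1 and −0.31 within batch 2. Of the 21 higher genes, 5 encode olfactory or vomeronasal receptors and 6 were measured by 1 probeset. Olfactory receptors as a whole gave 3 higher and 1 lower call among 830 genes (0.482%), with a median of 0.09 that was −0.03 without EphA4 knockout replicate 2.

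Whether a genotype difference was unequal in injured and in sham-operated cords was tested over all 12 arrays, which share the injured arrays with the calls. The test was two-sided, so that opposite differences of like size also pass, as in Npy (−0.43 in injured and 0.43 in sham-operated cords). The quantity tested was the difference between the differences. It met the same thresholds in 167 genes, 1.05% of all, and in 42 of the 126, and no gene passed an adjusted p of 0.05 (882 at an unadjusted p under 0.05 from limma). Without EphA4 knockout replicate 3 it was met in 340 genes. Since the 126 were chosen on one of its parts, this count is a description. Within sham-operated cords 213 genes passed the thresholds (1.35%), and there the median difference was −0.04 over the 105 lower genes, with 62 of them below 0, and 0.04 over the 21 higher ones. The mean of the injured wild-type arrays lay above that of the sham-operated wild-type arrays in 96 of the 105 lower genes. Arg1 had a mean of 4.04 in sham-operated wild-type and 3.82 in sham-operated EphA4 knockout cords, and the difference between the differences was −1.45 (unadjusted p = 0.00168 from limma). For Alox5ap it was −0.87 and for Junb −0.72 (unadjusted p = 0.000348 and 0.000562 from limma), and for Epha4 0.35. Of the 126, 10 also passed the thresholds between genotypes in sham-operated cords, 5 in the same direction and 5 (Timm8b, Inhba, Grp, Trim69 and Vmn1r172) in the opposite one. The same direction was that of Epha4 (−1.50), Ctse (0.71), Rmnd1 (0.35), Wdfy1 (0.80) and Ccl7 (−0.37). For Ctse, Wdfy1 and Ccl7 the difference between the treatments did not pass, at 0.89, −0.23 and −0.74 (unadjusted p = 0.123, 0.175 and 0.0671 from limma).

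**Figure D5:**
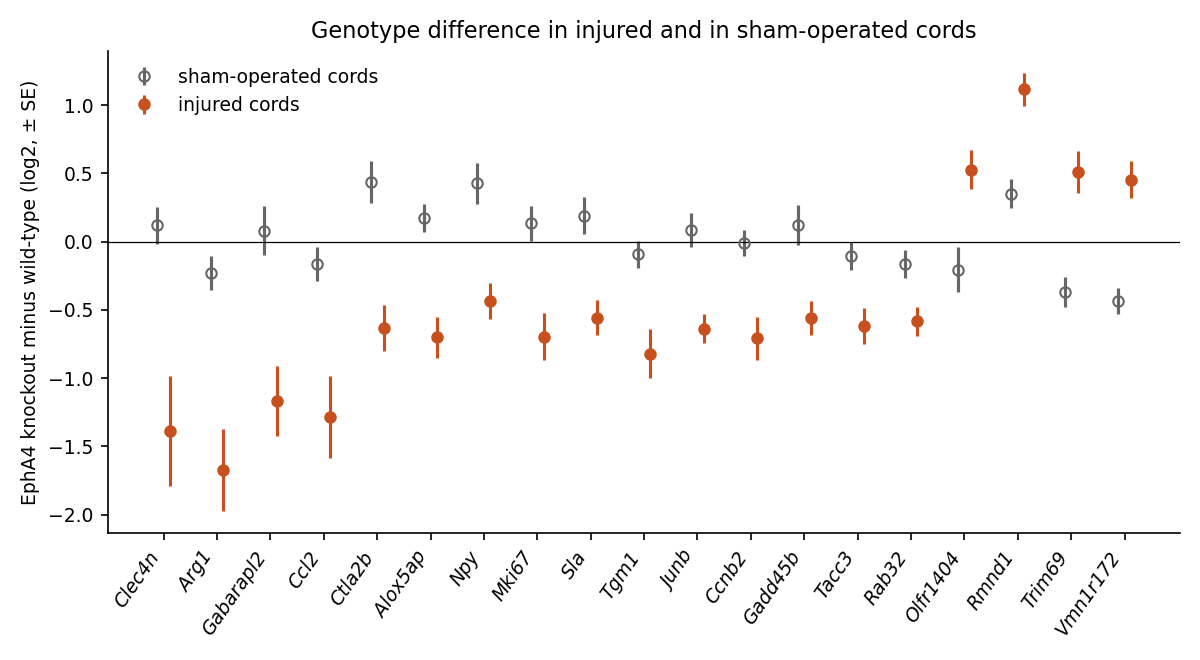
Difference between EphA4 knockout and wild-type on the log2 scale (vertical axis, with SE as bars) in sham-operated (open grey) and injured (filled) cords for the 19 genes of the naming rule whose difference between the treatments passed the same thresholds. In sham-operated cords these genes lie between −0.44 and 0.44, and in injured cords Arg1 reaches −1.68 and Rmnd1 1.12.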

How the data were processed

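The labels describe 12 mice with 1 Affymetrix Mouse Exon 1.0 ST array each. The authors imported the scans by robust multi-array averaging (RMA) in Partek Genomics Suite and kept core probesets, and the submitters' processing notes name mm9. The deposited values are log2 intensities, 1 per probeset and array, in 12 columns that were all matched to a mouse by the labels. As arrays give no read depth, precision is limited by the number of arrays. The labels give 3 µg of RNA per array and the methods another amount.

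A gene's level was the mean of the probesets that name it alone, 179614 of 194262, which gave 15830 genes (median 9 probesets, 809 genes with 1). The 1331 naming several genes and the 13317 naming none were left out. In the gene table of GRCm38.p6, 13745 symbols were current, 2046 were found as synonyms and 39 were not found. The injured groups were compared with limma 3.58.1 (statmod 1.5.0, R 4.3.3) on the 6 injured arrays, with genotype as the 1 factor, and p-values were adjusted over all genes by the Benjamini-Hochberg method. These p-values set each difference against the spread between arrays of 1 mouse each, which limma estimates in part from all genes. Extraction batch, sex and age also vary among these arrays and are part of that spread. Differences within batch 1 are those of EphA4 knockout replicate 2 from the mean of wild-type replicates 2 and 3, and within batch 2 those between the replicates 1. With 3 arrays against 3 an exact permutation test cannot go below a two-sided p of 0.1. Gene lists were described by counts and medians with no test of their own.

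The genes named are Epha4, the immune and macrophage genes of the study, the 15 largest increases and 25 largest decreases among called genes without overlap, and in each list up to 3 called members with the smallest p or else the member with the largest difference. Not all of these are described singly in the text, and Fabp5, S100a4 and Nupr1, all called lower, are among those left out. Further genes were named after their values were seen. The genes, lists and roles were chosen with earlier results of these data known. Alternatives were the median over probesets, 3 scalings, models with sex, batch or the replicate number, weights per array, exclusion of dim genes or dim probesets, 3 or more probesets, all 12 arrays in 1 fit, the methods' t-test, an adjusted p and leaving out each array. Of the scalings, equal interquartile ranges were added once the values had been seen. The injured genotype comparison and the difference between the treatments were first tested on simulated data with 200 of 15830 genes changed. In the injured comparison 16%, 76% and 92.5% of genes changed by 1.2-, 1.5- and 2-fold were recovered, with 174, 188 and 164 false calls. For the difference between the treatments these were 7%, 62% and 86%, with 142, 177 and 151 false calls. Figures were drawn with matplotlib 3.10.9.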

Additional observations from a re-analysis of the deposited data

Results flagged for a closer look

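For 19 of the genes named by rule, the genotype difference in injured cords differed from that in sham-operated cords at the thresholds of the report (limma over all 12 arrays, unadjusted p). None of the 19 passed an adjusted p of 0.05, the smallest being 0.481 for Vmn1r172, and 882 of all genes had an unadjusted p under 0.05. Each difference includes the injured contrast on which the gene was named, so that its direction is not independent of that choice.

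The differences between the differences, on the log2 scale, were negative for most of the 19. Of the genes of inflammation and myeloid cells, Clec4n stood at −1.51, Arg1 at −1.45, Ccl2 at −1.12, Alox5ap at −0.87, Sla at −0.74 and Rab32 at −0.42. Of those of cell division, Mki67 stood at −0.83, Ccnb2 at −0.70 and Tacc3 at −0.51. Of those of stress and signalling, Npy stood at −0.86, Junb at −0.72 and Gadd45b at −0.68. Gabarapl2, an autophagy protein measured by 1 probeset, stood at −1.25, Ctla2b, a cysteine protease inhibitor of mice, at −1.07, and Tgm1 at −0.73. Positive values were those of Vmn1r172 (0.89), Trim69 (0.88), Rmnd1 (0.76) and Olfr1404 (0.73). Npy, Trim69 and Vmn1r172 were among those with opposite signs in the 2 treatments, with sham differences of 0.43, −0.37 and −0.44.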

How the results depend on the processing

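The 126 called genes, 21 higher and 105 lower, became 209 (33 and 176) with all 12 arrays in 1 fit, 202 (97 higher) with batch as a fixed term, 553 (173 and 380) with array weights and 83 (65 lower) by the methods' t-test. The higher genes numbered 35 after centring on the median and 40 after another quantile normalization, and 42 with 60 lower after giving the arrays the same interquartile range. At an adjusted p under 0.05 from limma 0 were called, 0 higher and 0 lower, with 639 genes at an unadjusted p under 0.05. Leaving out 1 array gave totals of 72 to 182, with 13 to 67 higher and 57 to 123 lower. Probeset medians, the filters on dim genes and probesets, 3 or more probesets per gene, batch as a random block and sex in the model kept the total within 1.5 times. An adjusted p under 0.05 from limma was reached by Ctse without wild-type replicate 1, by Ccl2 without wild-type replicate 2, by 2 genes with all 12 arrays (smallest 0.00242, Rmnd1), by 3 with array weights (smallest 0.0158, Epha4) and by Gstp2 with the replicate block (0.0497). The 167 genes whose genotype difference itself differed between the treatments became 116 to 340 when 1 array was left out. The causes were not tested. Deviations of EphA4 knockout and wild-type arrays of the same replicate number correlated at 0.02, −0.06 and −0.05. Those of unlike numbers correlated at −0.15 to 0.20. With 3 arrays per genotype these values cannot decide whether the numbers pair mice. With the number as a replicate block 151 genes were called, 31 higher and 120 lower, and 163 for the difference between the treatments. Of 2217 values of the named genes under the alternatives, 1763 kept their direction and side of the threshold, 309 lost their call, 65 gained one and 48 untested values moved in the same direction. The other 32, of 17 genes that were not called, changed sign, among them Efnb2 (−0.06 without EphA4 knockout replicate 1) and Acta1 (0.33 within batch 1), and 0 did so among the 54 called genes. The 3 arrays per genotype, and signals near background for the dimmest genes, limit the precision.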
